A study of Mus musculus with 28 samples.

Results

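Mx1, Mx2, Rsad2, Cmpk2, Bst2, Ifitm1, Ifitm2, Ifitm3, Ifitm6 and Samhd1 are genes of proteins that act directly on viruses or on the nucleotides viruses need. These 10 genes were taken by name from the 54532 genes of the read count table, and all 10 were found in it. They were followed in bulk RNA sequencing of bone marrow-derived macrophages (BMDMs), made by culture with M-CSF from the marrow of C57/B6JB mice of 8 to 12 weeks. All 28 cultures received fresh medium with calcium. They were then given PBS (Control), 10 μg/ml of plasma-derived von Willebrand factor (pd-VWF, here VWF), the adhesive glycoprotein of primary hemostasis, or 100 ng/ml of bacterial lipopolysaccharide (LPS), which macrophages sense through TLR4. Cultures were harvested after 3.5 h or 16 h, with 5 Control, 5 VWF and 4 LPS cultures at each time. The labels call the cultures biological replicates and do not say whether they came from separate animals, so the tests measure the spread between these cultures. The design asks how far VWF changes macrophage RNA, how the change compares with that of LPS, and whether it lasts.

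Type I interferons bind the receptor of IFNAR1 and IFNAR2, and a factor that holds STAT2 and IRF9 then binds interferon-stimulated response elements (ISREs) in the promoters of antiviral genes. Macrophages make interferon-β after TLR4 is triggered, so that LPS reaches these genes through a second signal. The proteins act at different steps of infection: IFITM proteins hinder the fusion of viruses with endosomal membranes, Mx proteins are dynamin-like GTPases that hold viral nucleocapsids, viperin (Rsad2) makes a chain-terminating nucleotide, tetherin (Bst2) keeps budding particles on the cell surface, and SAMHD1 breaks down deoxynucleotides.

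Promoter sequence was available for 8 of the 10 genes, in RefSeq windows of GRCm38.p6 that hold the bases before each annotated start and the first bases after it. They were searched on both strands for an ISRE core, GAAANNGAAA. The core was found in 4 of the 8 windows, those of Rsad2, Bst2, Ifitm2 and Ifitm3, and in 3.44% of 32851 windows of the same length. With a C required after the core, as in the longer element, 2 of the 8 windows held it, those of Bst2 and Ifitm3, against 0.82% of all windows. The stretches that hold these cores are shown because the 4 genes differ in response, as described below: Rsad2 was among the genes that rose most, the VWF effects on Bst2 and Ifitm3 were larger at the later time, and Ifitm2 was near its control level at 16 h of VWF. Each is written 5′ to 3′ on the gene's own strand, with the core in capitals, and in Rsad2 the core lies on the opposite strand.
Rsad2, chr12:26456533-26456602, minus strand: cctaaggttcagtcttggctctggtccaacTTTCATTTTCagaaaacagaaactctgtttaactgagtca
Bst2, chr8:71537557-71537632, minus strand: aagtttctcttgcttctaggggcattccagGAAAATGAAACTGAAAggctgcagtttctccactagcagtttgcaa
Ifitm2, chr7:140955968-140956037, minus strand: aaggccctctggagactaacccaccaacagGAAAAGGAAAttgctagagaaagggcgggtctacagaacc
Ifitm3, chr7:141010714-141010743, minus strand: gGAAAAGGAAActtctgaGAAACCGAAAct
Bst2 holds 2 overlapping cores, and Ifitm3 holds 2 cores within the first bases after its RefSeq start. The core of Ifitm2 and the first core of Ifitm3 have the same letters.

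The same windows were searched on both strands for TTCNNNGAA, the palindromic core of the interferon-γ-activated site (GAS), and for GGGNNNNNCC, a loose form of the NF-κB site. A GAS core was in the windows of Samhd1, Ifitm3, Ifitm6 and Bst2, 4 of 8, and in 8.3% of all windows. In Bst2 it overlaps the first ISRE core and an NF-κB match, and in Ifitm3 it lies between the ISRE cores and overlaps the second. The NF-κB form was in the windows of Ifitm3, Bst2, Rsad2 and Cmpk2, 4 of 8, and in 50.79% of all windows. A match describes letters in the window and is no evidence of binding.

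**Figure D1:**
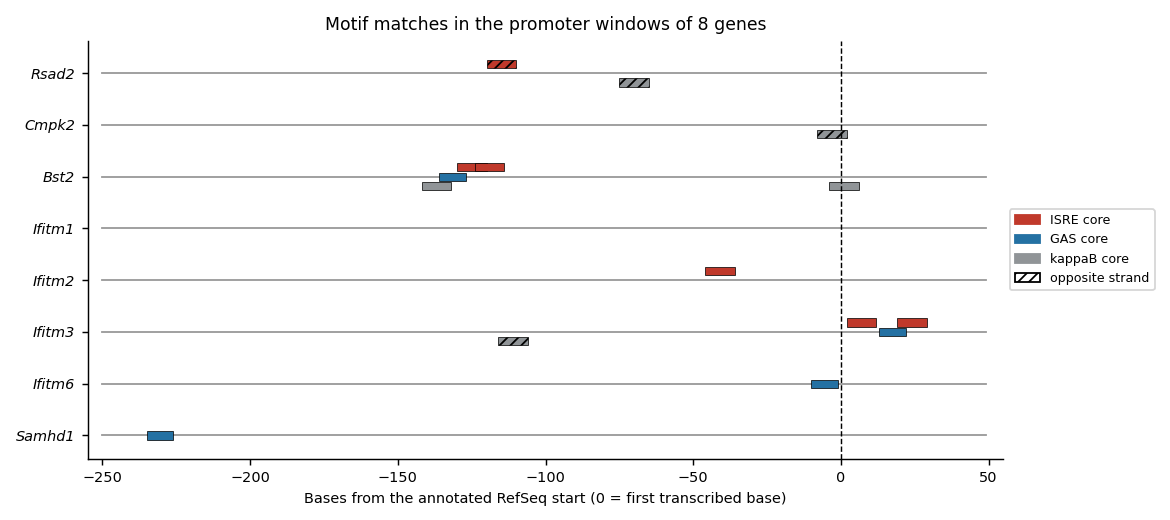
Positions of motif matches in the RefSeq promoter windows of 8 genes, with bases from the annotated start on the x axis, 1 line for each gene, and hatched boxes for matches on the opposite strand. ISRE cores lie between 130 bases before the start (Bst2) and 28 bases after it (Ifitm3), and the window of Ifitm1 holds no match.

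Total counts were between 41131209 and 77699206 per culture with a median of 52986574. The 8 macrophage markers (Adgre1, Csf1r, Cd68, Itgam, Mertk, Fcgr1, Lyz2 and Cd14) were present in every group, and their summed level lay between 7670 and 50690 TPM. Marker lists of other cells were far lower. The summed level of the plasmacytoid dendritic cell markers Siglech, Ccr9 and Bcl11a, cells that carry much Bst2, was at most 0.499 TPM in any culture, and that of T, B and NK cell markers at most 0.659 TPM. Neutrophil markers summed to at most 129 TPM, stromal and endothelial markers to at most 82.0 TPM, and erythroid and platelet markers to at most 38.7 TPM. The dendritic cell markers Flt3, Zbtb46 and Xcr1 moved with treatment, from 0.309 to 0.852 TPM in controls to 8.11 to 9.98 TPM with VWF at 3.5 h and 6.68 to 11.9 TPM with LPS, and were at 0.545 to 1.56 TPM with VWF at 16 h. Nearly all of this was Xcr1, Flt3 stayed at 0.0670 TPM or less in every culture, and the part of dendritic cells in the results was not tested. In 4 cultures the macrophage markers summed to under 0.67 of the median of their group. These were Control 16 h replicate 5 (7670 TPM, against 30910 to 36790 TPM in its group), LPS 3.5 h replicate 1 (10570 TPM, against 17520 to 18180 TPM), LPS 16 h replicate 4 (9179 TPM, against 16140 to 19010 TPM) and VWF 16 h replicate 4 (28540 TPM, against 43660 to 50690 TPM). Results are also given below without these cultures where that changes them.

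After 3.5 h with VWF, Mx1, Mx2, Rsad2 and Cmpk2 were between 97.4-fold (Cmpk2) and 164-fold (Mx2) above control, while the other tested genes differed by less than the fold threshold. Of the 10 genes, 9 reached 10 TPM in a culture of this comparison and were tested, Mx1 and Mx2 through their VWF cultures alone, and Ifitm1 stayed under this filter. A gene was called at an adjusted p under 0.05 and an absolute log2 fold change over 1 in the edgeR quasi-likelihood test, adjusted over all genes tested. By this rule 4 of the 9 rose, beside 746 of 8200 genes tested (9.1%). The median log2 fold change was 0.93 over the 9 genes and -0.01 over all genes. Bulk RNA cannot tell a smaller number of cells of a type from less RNA per cell, here and in every comparison that follows.

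After 16 h with VWF, the same 4 genes were still above control, but by a smaller factor, and Bst2 and Ifitm3 had joined them. Of 9 genes tested 6 rose, beside 355 of 7798 genes tested (4.55%). Mx1 and Mx2 again passed the filter through the VWF cultures alone, and Ifitm6 through the control cultures alone. The median log2 fold change was 2.51 over the 9 genes and -0.03 over all genes.

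LPS raised all 10 genes at both times. The share of all tested genes that rose was 12.8% at 3.5 h and 15.3% at 16 h. Mx1, Mx2 and Ifitm1 passed the filter through the LPS cultures alone at each time, so that these 3 genes could enter the test only by being high with LPS. For Ifitm1 at 3.5 h the entry rested on LPS replicate 2 alone (10.96 TPM). The median log2 fold change of the 10 genes was 2.61 at 3.5 h and 3.61 at 16 h. With library size alone as the scaling, which put the median of all genes at -0.55 at 3.5 h, Ifitm1, Ifitm2 and Ifitm6 were no longer past the fold threshold at that time (log2 fold changes of 0.68, 0.74 and 0.54). VWF and LPS were compared with the same control cultures, so that their fold changes share the error of those controls.

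**Figure D2:**
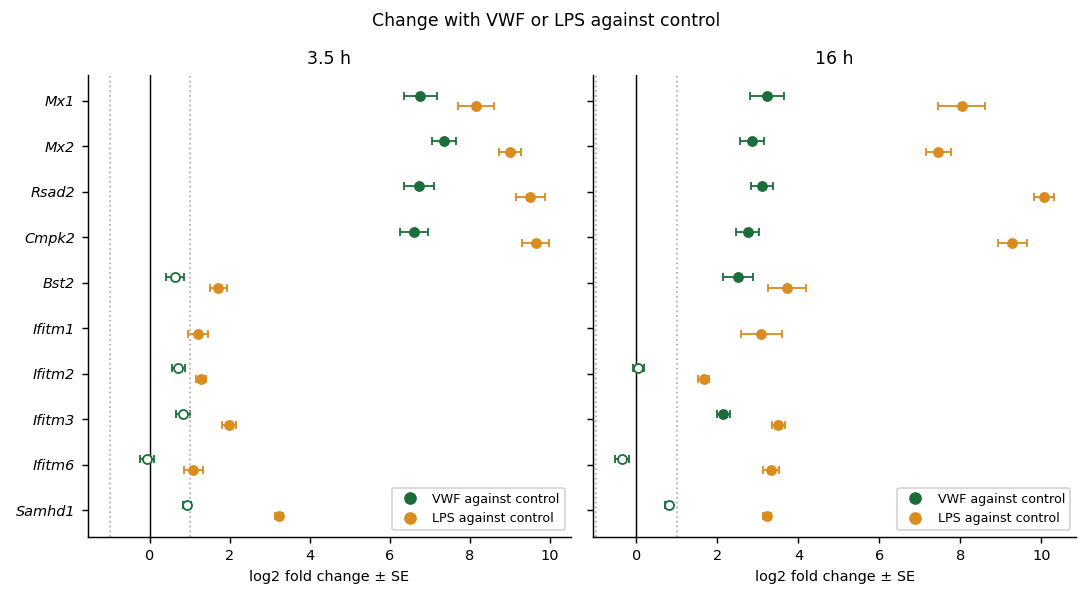
Log2 fold change against control, with bars of 1 SE, for VWF (green) and LPS (orange) at 3.5 h and 16 h; filled points passed the adjusted p and fold rule, open points did not, and dotted lines mark a log2 fold change of 1 in either direction. With VWF at 3.5 h the 4 filled points lie between 6.61 and 7.36, while at 16 h the 6 filled points lie between 2.15 and 3.21.

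Compared directly, VWF gave lower levels than LPS for most of the genes at 3.5 h and for every one of them at 16 h. At 3.5 h 8 of the 10 were lower, beside 6.71% of all genes tested; the exceptions were Ifitm1 (-0.81 (SE 0.27), adjusted p 0.0294) and Ifitm2 (-0.54 (SE 0.17), adjusted p 0.0213), whose differences were under the fold threshold. At 16 h all 10 were lower, beside 14.5% of all genes tested. Ifitm1 at both times and Ifitm6 at 16 h passed the filter through the LPS cultures alone, so that they could enter the test only by being high with LPS. At 3.5 h the entry of Ifitm1 rested on LPS replicate 2 alone. With library size alone, 5 genes were lower at 3.5 h (Mx1, Mx2, Rsad2, Cmpk2 and Samhd1), since the differences of Bst2, Ifitm3 and Ifitm6 were then -0.76, -0.84 and -0.83, where the median of all genes had moved to 0.32. At 16 h under the same scaling Bst2 and Ifitm3 differed by -0.70 and -0.85 and missed the threshold. Single cultures also decided some calls at 3.5 h: Bst2 was at -0.96 without LPS replicate 4 or without VWF replicate 5, Ifitm6 was at -0.94 without LPS replicate 4, and Ifitm1 passed at -1.02 without VWF replicate 2.

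Between 3.5 h and 16 h the genes moved in different directions in the treated cultures. In VWF cultures 4 of the 9 tested genes fell (Mx1, Mx2, Rsad2 and Cmpk2), beside 12.2% of all genes, and Bst2 rose, beside 9.15%. In LPS cultures Bst2, Ifitm1 and Ifitm6 rose, 3 of the 10 genes beside 14.6% of all genes, and Mx2 fell, beside 13.5%. In control cultures 9.08% of all genes passed the rule in either direction. Of the 7 genes tested there, 3 had an adjusted p under 0.05 in edgeR, beside 1721 genes higher and 1708 lower of 8333. None of the 7 passed the fold threshold in edgeR or in DESeq2. The 3 genes were Rsad2 (-0.80 (SE 0.28), adjusted p 0.0399), Ifitm3 (-0.54 (SE 0.17), adjusted p 0.0291) and Samhd1 (0.58 (SE 0.084), adjusted p 0.00046).

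The change of an effect with time was tested as an interaction. The VWF effect was smaller at 16 h than at 3.5 h for 4 genes (Mx1, Mx2, Rsad2 and Cmpk2), beside 7.77% of all genes, and larger for 2 (Bst2 and Ifitm3), beside 5.69%. The LPS effect was smaller at 16 h for Mx2, 1 gene beside 12.8% of all genes, and larger for 4 (Bst2, Ifitm1, Ifitm3 and Ifitm6), beside 13.5%. The difference between VWF and LPS grew with time for 7 genes (Mx1, Mx2, Rsad2, Cmpk2, Ifitm1, Ifitm2 and Ifitm6), beside 14.3% of all genes. Ifitm2 kept this call in 3 of 8 alternative settings. For Bst2 (-0.14 (SE 0.41)), Ifitm3 (-0.18 (SE 0.20)) and Samhd1 (-0.12 (SE 0.14)) the adjusted p of this change was 0.794, 0.47 and 0.5 in the same edgeR test. Mx1 and Mx2 entered the tests of the VWF and LPS effects through the treated cultures alone, and Ifitm1 entered those that hold LPS through the LPS cultures alone, so their calls cannot be read against the share of all genes. Ifitm6 reached the filter in all but the VWF 16 h cultures.

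**Figure D3:**
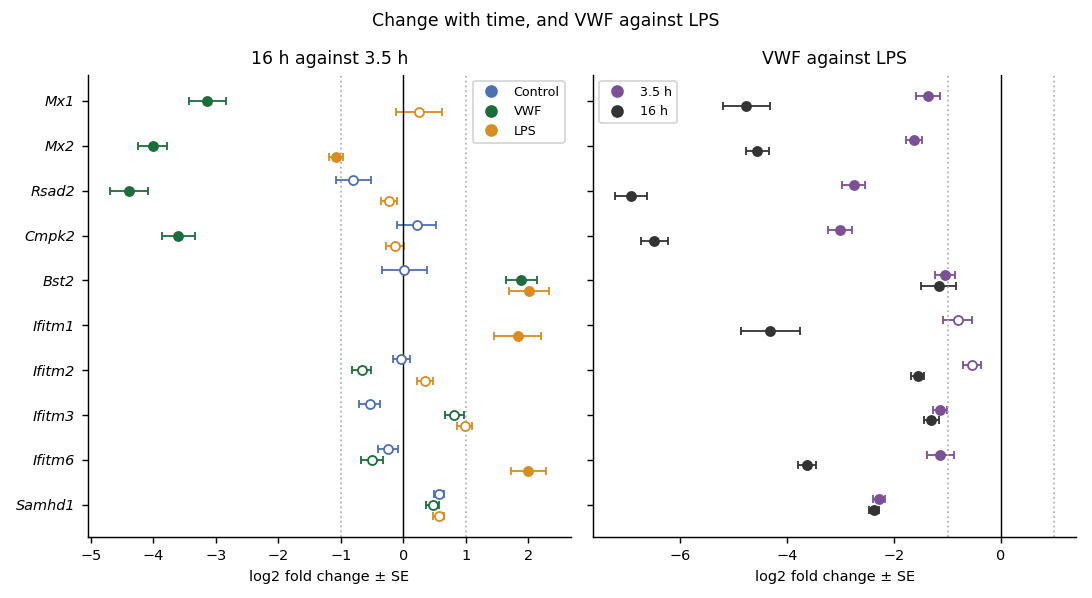
Left, log2 fold change of 16 h against 3.5 h in Control, VWF and LPS cultures; right, VWF against LPS at each time; bars are 1 SE, filled points passed the adjusted p and fold rule, and genes under the expression filter have no point. Mx1, Mx2, Rsad2 and Cmpk2 lie between -4.39 and -3.14 for time in VWF cultures, and the VWF to LPS difference of Rsad2 goes from -2.76 at 3.5 h to -6.92 at 16 h.

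**Figure D4:**
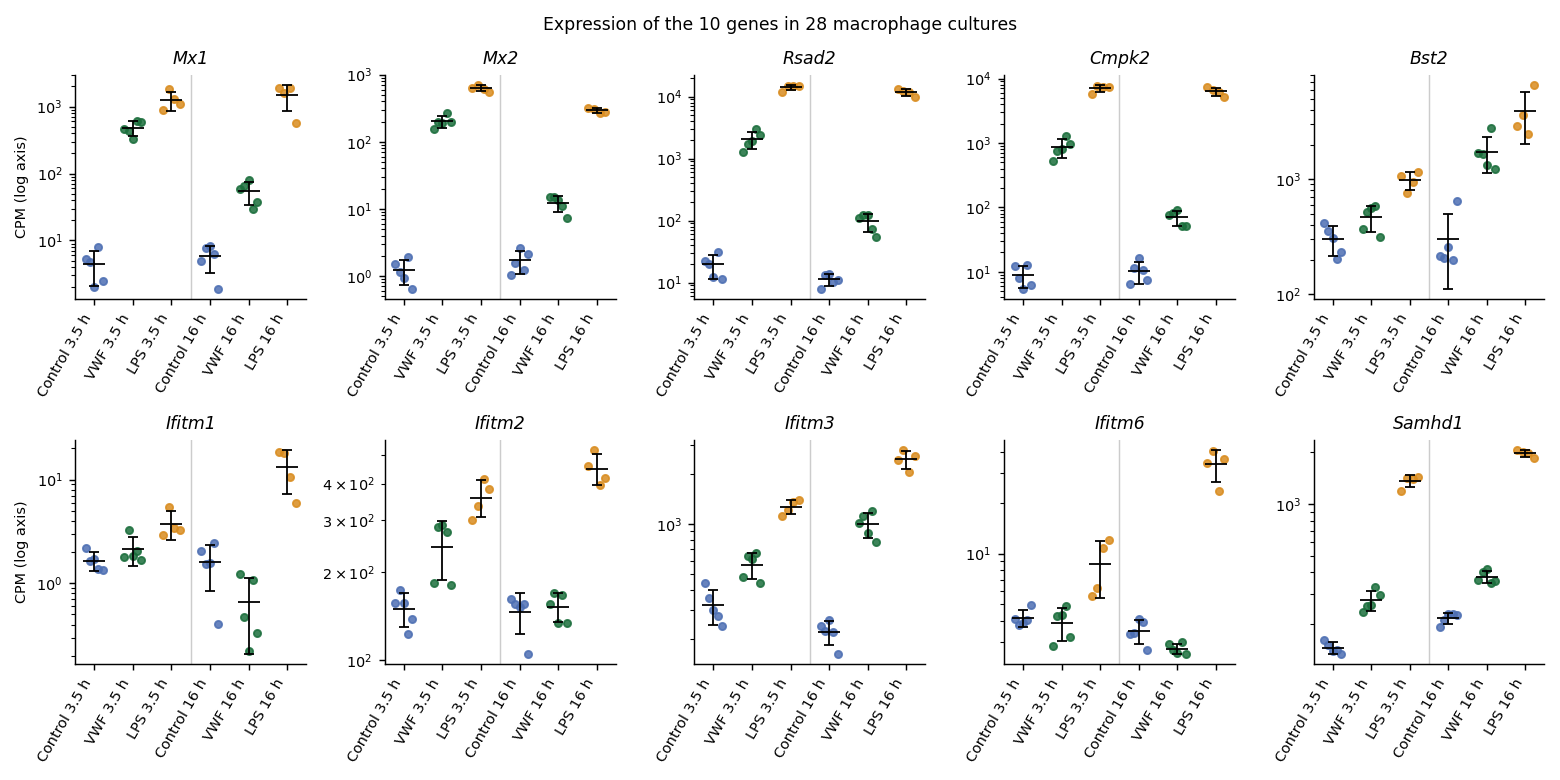
Expression of the 10 genes in each of the 28 cultures, in CPM scaled by TMM factors on a log axis; points are cultures, horizontal lines are means and bars 1 SD (n = 5 for Control and VWF, n = 4 for LPS), and the grey line separates 3.5 h from 16 h. Mx1, Mx2, Rsad2 and Cmpk2 with VWF are nearer LPS than control at 3.5 h and nearer control at 16 h, while Bst2, Ifitm3 and Samhd1 with VWF are higher at 16 h than at 3.5 h.

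Mx1 (ENSMUSG00000000386) lies on chromosome 16 of GRCm38 from 97447035 to 97462907 on the minus strand. Its product is the dynamin-like GTPase that restricts influenza virus in mice that carry an intact allele. The alleles of common laboratory strains are disrupted, so that RNA from the locus says nothing of a working protein. RefSeq lists both Mx genes as transcribed pseudogenes, while GENCODE lists Mx1 as protein-coding. Levels are given in CPM, read counts scaled to a library of standard size and adjusted by TMM factors. Control cultures held 5.35, 4.74, 2.05, 7.98 and 2.44 CPM at 3.5 h and 4.96, 7.83, 8.18, 6.24 and 1.91 CPM at 16 h. VWF cultures held 469.9, 429.6, 329, 612 and 580.3 CPM at 3.5 h and 59.1, 66.1, 80.7, 29.3 and 37.4 CPM at 16 h. All VWF cultures lay above all controls of their time, and at 16 h the 2 lowest VWF cultures were replicates 4 and 5. LPS cultures held 894, 1829, 1277 and 1090 CPM at 3.5 h and 1921, 1586, 1876 and 577 CPM at 16 h, where replicate 4, one of the cultures low in macrophage markers, stood below the other 3.

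The fold change of Mx1 with VWF was 108 at 3.5 h, or 6.76 (SE 0.41) on the log2 scale (adjusted p 1.26e-07), and 9.28 at 16 h, or 3.21 (SE 0.42) (adjusted p 0.000216). With LPS the log2 fold change was 8.16 (SE 0.45) at 3.5 h and 8.03 (SE 0.57) at 16 h. In VWF cultures Mx1 fell by 3.14 on the log2 scale between the times (SE 0.29), while in LPS cultures the difference was 0.25 (SE 0.36) with an adjusted p of 0.574. The order of the group means was Control 3.5 h, Control 16 h, VWF 16 h, VWF 3.5 h, LPS 3.5 h and LPS 16 h, and the ranges overlapped between the control groups, between the LPS groups, and between VWF 3.5 h and LPS 16 h through LPS replicate 4.

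Mx2 (ENSMUSG00000023341), on chromosome 16 from 97535308 to 97560900 on the plus strand, encodes a cytoplasmic relative of Mx1 and is a polymorphic pseudogene in GENCODE. It was the least abundant of the 10 genes per length in control cultures, with a mean of 1.11 TPM at 3.5 h and 1.37 TPM at 16 h. The control ranges were 0.647 to 1.90 CPM at 3.5 h and 1.04 to 2.63 CPM at 16 h. VWF cultures held 152, 196, 188, 271 and 200.3 CPM at 3.5 h and 14.9, 15.2, 13.7, 10.99 and 7.23 CPM at 16 h. Replicate 5 was the lowest VWF culture at 16 h and was still above every control. LPS cultures held 643, 709, 619 and 555 CPM at 3.5 h and 321, 311, 264 and 277 CPM at 16 h. Mx2 had the largest log2 fold change with VWF at 3.5 h among the 10 genes, 7.36 (SE 0.29) or 164-fold, and 2.85 (SE 0.31) at 16 h. It was the one gene of the set that fell with time in LPS cultures (-1.08 (SE 0.11), adjusted p 4.05e-05), without overlap between the times. The transcripts of Mx1 and Mx2 share 41 windows of 100 bases, 0.93% of those of Mx1 and 1.13% of those of Mx2, so reads of one could be counted to the other over a small part of their length only.

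Rsad2 (ENSMUSG00000020641), on chromosome 12 from 26442746 to 26456452 on the minus strand, encodes viperin, a radical SAM enzyme that converts CTP into a nucleotide that stops viral polymerases. Cmpk2 (ENSMUSG00000020638) starts beside it on the plus strand, from 26469204 to 26479837, and encodes a mitochondrial UMP/CMP kinase that supplies deoxynucleotides. The promoter stretch of Rsad2 with its ISRE core, which lies before the RefSeq start, is shown above. Control cultures held 22.3, 20.3, 12.3, 31.4 and 11.6 CPM of Rsad2 at 3.5 h and 7.99, 13.2, 13.97, 10.2 and 10.9 CPM at 16 h. VWF cultures held 1296, 1714, 1908, 2991 and 2356 CPM at 3.5 h and 111, 121, 125, 73.7 and 54.4 CPM at 16 h. LPS cultures held 11983, 15009, 14785 and 14547 CPM at 3.5 h and 13466, 12161, 11630 and 9870 CPM at 16 h. The treated groups lay clear of the controls and of each other at each time, and the LPS groups of the 2 times overlapped.

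Rsad2 thus stood 106-fold above control with VWF at 3.5 h (6.73 (SE 0.37) on the log2 scale, adjusted p 6.63e-08) and 8.58-fold at 16 h (3.10 (SE 0.26)). With LPS the log2 fold change was 9.51 (SE 0.36) at 3.5 h and 10.07 (SE 0.25) at 16 h, the latter being the largest of any of the 10 genes in the comparisons with control. LPS exceeded VWF 6.76-fold at 3.5 h and 121-fold at 16 h. By mean TPM, Rsad2 was gene 17 of 54495 with a known length in LPS cultures at 3.5 h, with 6647 TPM, and gene 5976 in controls, with 14.8 TPM.

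Cmpk2 followed the same course at a lower level. Control cultures held 5.49 to 12.9 CPM at 3.5 h and 6.43 to 16.3 CPM at 16 h. VWF cultures held 533, 737, 808, 1265 and 963 CPM at 3.5 h and 75.4, 81.5, 91.9, 51.3 and 50.6 CPM at 16 h, and LPS cultures 5655, 7786, 7260 and 7512 CPM at 3.5 h and 7380, 6557, 6093 and 5207 CPM at 16 h. Every treated culture lay above every control. The log2 fold change with VWF was 6.61 (SE 0.35) at 3.5 h and 2.75 (SE 0.29) at 16 h, and with LPS 9.64 (SE 0.34) and 9.28 (SE 0.36). Over the 28 cultures log2 CPM of Rsad2 and Cmpk2 had a Pearson r of 0.996, the highest of the 45 pairs among the 10 genes, and their deviations from the group means had an r of 0.905. These values describe cultures that share groups, depth and scaling.

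Mx1, Mx2, Rsad2 and Cmpk2 fell together in VWF cultures. Between 3.5 h and 16 h the log2 differences were -3.14 (SE 0.29) for Mx1, -4.01 (SE 0.23) for Mx2, -4.39 (SE 0.31) for Rsad2 and -3.61 (SE 0.26) for Cmpk2, and no culture of one time overlapped those of the other. The change of the VWF effect with time was -3.51 (SE 0.54), -4.47 (SE 0.40), -3.60 (SE 0.41) and -3.82 (SE 0.42) for the 4 genes in the same order, with adjusted p values of 4.11e-05, 4.81e-08, 1.14e-06 and 5.84e-07. The corresponding change of the LPS effect was -0.10 (SE 0.61) for Mx1, 0.58 (SE 0.35) for Rsad2 and -0.34 (SE 0.38) for Cmpk2, with adjusted p values of 0.905, 0.181 and 0.481. For Mx2 it was -1.54 (SE 0.37), which passed the rule.

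Bst2 (ENSMUSG00000046718), on chromosome 8 from 71534255 to 71537456 on the minus strand, encodes tetherin, a membrane protein with an anchor at each end that holds budding virus particles to the cell. Its promoter stretch with the 2 overlapping ISRE cores is shown above. Control cultures held 416, 353, 312, 203 and 232 CPM at 3.5 h and 215, 205, 259, 199 and 647 CPM at 16 h, where replicate 5 stood above the other 4. VWF cultures held 370.4, 519, 558, 579.9 and 313 CPM at 3.5 h and 1698, 1671, 1325, 2762 and 1226 CPM at 16 h. LPS cultures held 1074, 755, 946 and 1159 CPM at 3.5 h and 2873, 3635, 2473 and 6624 CPM at 16 h, with replicate 4 above the other 3. At 3.5 h the VWF and control ranges overlapped, and at 16 h all VWF cultures lay above all controls. The VWF and LPS ranges overlapped at 16 h through VWF replicate 4.

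The Bst2 difference with VWF at 3.5 h was 0.64 (SE 0.23) (adjusted p 0.039), under the fold threshold, and at 16 h Bst2 was 5.69-fold above control (2.51 (SE 0.38), adjusted p 0.000572). With LPS the log2 fold change was 1.71 (SE 0.22) at 3.5 h and 3.72 (SE 0.47) at 16 h. Bst2 was the only one of the 10 genes to pass the fold threshold upward with time in both treatments, with differences of 1.89 with VWF (SE 0.24) and 2.02 with LPS (SE 0.32), and Ifitm3 and Samhd1 rose in both by less. In controls the difference was 0.02 (SE 0.36). The 3 cultures of the 16 h groups that were low in macrophage markers were also the highest in Bst2 of their groups and the lowest in Mx1, and the part of this in the results was measured by leaving them out. Without them the log2 fold change of Bst2 was 2.76 (SE 0.13) with VWF and 3.80 (SE 0.15) with LPS at 16 h, and that of Mx1 was 3.17 (SE 0.26) and 8.08 (SE 0.20). The VWF to LPS difference of Bst2 at 16 h was -1.17 (SE 0.33) with all cultures, -1.0 (SE 0.16) without these cultures and -0.79 without LPS 16 h replicate 4 alone, both of which miss the fold threshold. By mean TPM Bst2 was the most abundant of the 10 genes at 16 h with VWF and with LPS, at 5222 and 8621 TPM, gene 18 and gene 14 of all genes.

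Ifitm3 (ENSMUSG00000025492), on chromosome 7 from 141009586 to 141010770 on the minus strand, encodes an endosomal membrane protein that blocks the fusion of influenza and many other viruses. Control cultures held 440.4, 355, 301, 278 and 242 CPM at 3.5 h and 240.1, 224, 263, 222 and 164 CPM at 16 h. VWF cultures held 475, 635, 616, 663 and 441 CPM at 3.5 h and 1009, 1108, 882, 1197 and 776 CPM at 16 h. LPS cultures held 1122, 1204, 1349 and 1396 CPM at 3.5 h and 2416, 2793, 2053 and 2571 CPM at 16 h. The lowest VWF culture at 3.5 h, replicate 5, lay just above the highest control, replicate 1, and at 16 h the groups were far apart. The VWF difference was 0.82 (SE 0.17) at 3.5 h (adjusted p 0.00232), under the fold threshold, and 2.15 (SE 0.16) at 16 h (adjusted p 5.35e-06), a fold of 4.43. With LPS the log2 fold change was 1.99 (SE 0.17) at 3.5 h and 3.50 (SE 0.16) at 16 h.

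The VWF effect on Ifitm3 grew with time by 1.36 (SE 0.24) and the LPS effect by 1.52 (SE 0.23), both past the rule. Within VWF cultures the difference between times was 0.82 (SE 0.15) and within LPS cultures 0.98 (SE 0.12), each with its adjusted p under 0.05 and its size under the fold threshold. Without LPS 16 h replicate 3, or without LPS 3.5 h replicate 3 or 4, the value in LPS cultures was 1.07, 1.01 or 1.03 and passed. Ifitm3 was the most abundant of the 10 genes per length in controls, at 1532 TPM at 3.5 h and 980.1 TPM at 16 h, and was among the 150 genes of highest mean TPM in every group.

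Ifitm2 (ENSMUSG00000060591), on chromosome 7 from 140954837 to 140955987 on the minus strand, encodes a relative of IFITM3 that is found mainly on late endosomes. Control cultures held 156, 173, 156, 123 and 138 CPM at 3.5 h and 162, 156, 152, 156 and 105 CPM at 16 h. VWF cultures held 183, 285, 289, 274 and 181 CPM at 3.5 h and 156, 169, 134, 167 and 134 CPM at 16 h. LPS cultures held 299, 334, 416 and 384 CPM at 3.5 h and 461, 521, 397 and 418 CPM at 16 h. Every VWF culture was above every control at 3.5 h, and the ranges overlapped at 16 h. The log2 difference with VWF was 0.71 (SE 0.16) at 3.5 h (adjusted p 0.00296), under the fold threshold, and 0.05 (SE 0.13) at 16 h (adjusted p 0.851). LPS raised it by 1.28 at 3.5 h (SE 0.13) and 1.66 at 16 h (SE 0.14).

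Ifitm2 and Ifitm3 thus had like differences with VWF at 3.5 h and different ones at 16 h. The VWF effect on Ifitm2 changed with time by -0.63 (SE 0.21) (adjusted p 0.0245) and that on Ifitm3 by 1.36, and no test compared the genes with each other. The count of Ifitm2 is less certain than the others. Of its exon length 40.92% overlaps Gm45717 on the same strand, and 34.89% of its windows of 100 bases occur in another gene, while Ifitm1, Ifitm3 and Ifitm6 share none. Gm45717 itself had at most 2 counts in any culture.

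Ifitm1 (ENSMUSG00000025491), from 140967221 to 140969825 on the plus strand, and Ifitm6 (ENSMUSG00000059108), from 141015699 to 141017924 on the minus strand, lie in the same cluster on chromosome 7. Ifitm1 encodes the family member that acts mostly at the plasma membrane, and Ifitm6 is a rodent gene. Both were scarce outside LPS. Ifitm1 held 1.36 to 2.20 CPM in controls at 3.5 h, 1.66 to 3.30 CPM with VWF at 3.5 h, 0.406 to 2.43 CPM in controls at 16 h and 0.222 to 1.24 CPM with VWF at 16 h. LPS cultures held 2.92, 5.48, 3.43 and 3.25 CPM at 3.5 h and 18.3, 18.2, 10.5 and 5.999 CPM at 16 h. The VWF ranges overlapped the control ranges at both times, and the LPS ranges did not. At 16 h the LPS cultures of Ifitm1 fell into a higher pair, replicates 1 and 2, and a lower pair, replicates 3 and 4.

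Ifitm1 was tested only where LPS cultures were included. It rose with LPS by 1.21 at 3.5 h (SE 0.25, adjusted p 0.0014) and 3.08 at 16 h (SE 0.50, adjusted p 0.000559), and was 19.9-fold lower with VWF than with LPS at 16 h. With no expression filter its VWF difference was 0.42 (SE 0.24) at 3.5 h and -1.21 (SE 0.52) at 16 h, with adjusted p values of 0.261 and 0.198. In 1 fit over all groups the 16 h value was -1.26 (SE 0.42) with an adjusted p of 0.0232. Without the filter its difference between 16 h and 3.5 h in VWF cultures was -1.73 (SE 0.39, adjusted p 0.0024), from 14 to 79 counts per culture at 16 h.

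Ifitm6 held 4.10, 3.75, 3.85, 4.04 and 4.92 CPM in controls at 3.5 h and 3.32, 3.40, 4.10, 3.92 and 2.67 CPM at 16 h. VWF cultures held 2.82, 4.25, 4.29, 4.88 and 3.19 CPM at 3.5 h and 2.89, 2.69, 2.56, 2.96 and 2.54 CPM at 16 h. LPS cultures held 5.56, 6.27, 10.8 and 12.03 CPM at 3.5 h and 34.6, 40.96, 23.6 and 36.6 CPM at 16 h. VWF and control ranges overlapped at both times, and every LPS culture was above every control. The log2 difference with VWF was -0.07 (SE 0.17) at 3.5 h and -0.36 (SE 0.17) at 16 h, with adjusted p values of 0.788 and 0.148. With LPS the log2 fold change was 1.09 (SE 0.23) at 3.5 h and 3.32 (SE 0.19) at 16 h, and the LPS effect grew by 2.25 (SE 0.31). At 3.5 h the 4 LPS cultures formed 2 pairs, and without replicate 3 or 4, the higher ones, the log2 fold change was 0.97 or 0.89 and missed the fold threshold.

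The other members of the family stayed under the filter in every comparison: Ifitm5, the form found in bone, reached at most 5.75 TPM in any culture, Ifitm7 at most 2.99 TPM and Ifitm10 at most 1.81 TPM.

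Samhd1 (ENSMUSG00000027639), on chromosome 2 from 157097533 to 157135265 on the minus strand, encodes a dNTP triphosphohydrolase that keeps deoxynucleotides low in non-dividing myeloid cells. Control cultures held 162, 151, 139, 142 and 134 CPM at 3.5 h and 191, 211, 228, 228 and 225 CPM at 16 h. VWF cultures held 234, 256, 258, 328 and 296 CPM at 3.5 h and 362, 402, 418, 348 and 358 CPM at 16 h. LPS cultures held 1193, 1406, 1391 and 1434 CPM at 3.5 h and 2048, 2008, 1974 and 1842 CPM at 16 h. It was the one gene of the set whose 6 groups did not overlap at all, in the order Control 3.5 h, Control 16 h, VWF 3.5 h, VWF 16 h, LPS 3.5 h and LPS 16 h. The difference with VWF was 0.93 (SE 0.099) at 3.5 h (adjusted p 1.22e-05) and 0.79 (SE 0.086) at 16 h (adjusted p 5.83e-05), both under the fold threshold.

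LPS raised Samhd1 9.44-fold at 3.5 h (3.24 (SE 0.10)) and 9.32-fold at 16 h (3.22 (SE 0.10)). Its level was higher at 16 h than at 3.5 h by 0.58 (SE 0.084) in controls, 0.47 (SE 0.10) with VWF and 0.56 (SE 0.095) with LPS, all under the fold threshold. The change of the VWF effect with time was -0.10 (SE 0.13) and that of the LPS effect -0.01 (SE 0.12), with adjusted p values of 0.605 and 0.972. The spread between cultures was small: the SD was between 4.53% and 13.6% of the mean over the 6 groups.

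The genes of deoxynucleotide supply, on which Samhd1 and Cmpk2 bear from opposite sides, were read from a list of 12. With VWF 1 of 10 tested genes rose at 16 h, the deoxycytidine kinase gene Dck (1.17 (SE 0.091)), beside 4.55% of all genes. With LPS at 3.5 h Dck rose (2.51 (SE 0.19)) and Tk2, the mitochondrial thymidine kinase gene, fell (-1.20 (SE 0.11)), of 9 tested, beside 12.8% of all genes higher and 11.8% lower. With LPS at 16 h 6 of 10 fell, beside 12.4% of all genes, and Dck rose (2.39 (SE 0.11)), beside 15.3%. The largest decreases were in the ribonucleotide reductase subunit Rrm2 (-4.92 (SE 0.28)), the thymidine kinase Tk1 (-4.59 (SE 0.37)), the dUTPase Dut (-3.46 (SE 0.27)) and the large reductase subunit Rrm1 (-3.01 (SE 0.11)). All of these were under 10 TPM in every LPS culture at 16 h. They thus passed the filter through the control cultures alone. The median over the 10 genes was -2.19 with LPS and -0.04 with VWF at 16 h, against -0.03 over all genes in each.

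SAMHD1 is switched by phosphorylation through cyclin A2 with CDK1 or CDK2, and p21 (Cdkn1a) inhibits these kinases. Of the 4 genes, Cdkn1a rose with VWF at 3.5 h (3.44 (SE 0.12)) and with LPS at 3.5 h (3.46 (SE 0.14)) and 16 h (1.87 (SE 0.13)). At 16 h of VWF its difference was 0.41 (SE 0.12), under the fold threshold. Ccna2 fell with VWF at 16 h (-1.37 (SE 0.19)) and with LPS at 3.5 h (-1.17 (SE 0.21)) and 16 h (-6.75 (SE 0.46)). Cdk2 fell with LPS at both times (-1.23 (SE 0.13) and -1.38 (SE 0.15)) and Cdk1 with LPS at 16 h (-2.74 (SE 0.20)). Of all genes tested, 9.1% rose with VWF at 3.5 h, and 12.8% and 15.3% with LPS at 3.5 h and 16 h. The shares that fell were 4.15% with VWF at 16 h, and 11.8% and 12.4% with LPS. Against LPS, Cdk2 at both times and Ccna2 and Cdk1 at 16 h passed the filter through the control cultures alone. They could thus enter those tests only by being high in controls.

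Genes that make and carry the type I interferon signal were read from a list of 14. With VWF at 3.5 h 9 of 14 rose, beside 9.1% of all genes, led by the interferon-β gene Ifnb1 (6.63 (SE 0.61)), the inhibitors Socs1 (6.03 (SE 0.26)) and Usp18 (5.25 (SE 0.34)), and Stat2 (3.23 (SE 0.18)). Ifnb1 was at 0.0417 ± 0.0558 CPM (SD, n = 5) in these controls, with at most 7 counts in a culture, so that its fold change rests on few control reads, and at 3.94 ± 1.30 CPM with VWF. With VWF at 16 h 4 of 12 rose, beside 4.55% of all genes, among them Irf7 (4.57 (SE 0.31)), Usp18 (4.01 (SE 0.36)) and Stat2 (1.93 (SE 0.36)). Ifnb1 had fallen by 5.55 in VWF cultures between the times (SE 0.42), to at most 11 counts in a culture. It entered that comparison through the 3.5 h cultures alone. Against control, Ifnb1, Socs1 and Usp18 at 3.5 h and Usp18 at 16 h passed the filter through the VWF cultures alone. They could enter these tests only by being high with VWF, so their calls cannot be read against the share of all genes.

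With LPS 8 of the 14 rose at 3.5 h, beside 12.8% of all genes, led by Ifnb1 (12.08 (SE 0.46), 170.5 ± 51.4 CPM), Socs1 (8.63 (SE 0.19)), Usp18 (7.30 (SE 0.31)) and Stat2 (3.61 (SE 0.19)). At 16 h 10 of 13 rose, beside 15.3% of all genes, led by Usp18 (7.53 (SE 0.41)), Irf7 (6.80 (SE 0.33)), Socs1 (6.57 (SE 0.29)) and Stat2 (4.29 (SE 0.44)), and the interferon-γ receptor chain Ifngr1 fell (-1.51 (SE 0.18)). Irf7, the transcription factor that widens the interferon response, rose with time in both treatments (1.98 (SE 0.17) with VWF and 2.43 (SE 0.15) with LPS), as Bst2 did. Socs1, Usp18 and, at 3.5 h, Ifnb1 again entered the comparisons with control through the LPS cultures alone. The lists were read only for how many of their genes moved, and no list was tested as a set.

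Genes of proteins known to work with viperin or IFITM3 changed little: the tested ones, Vapa, Ciao1 and Zmpste24, had log2 differences between -0.40 and 0.60 in the comparisons with control. Among the tested reference genes Actb (1.13 (SE 0.34)) rose and Hprt (-1.19 (SE 0.19)) fell with LPS at 16 h. In the other 3 comparisons with control none passed the fold threshold, and the largest difference was 0.96, for Actb with LPS at 3.5 h.

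The genes most like each of the 10, by Pearson r of log2 CPM over the 28 cultures among genes reaching 10 TPM in any culture, were Oasl1 (0.990) and Ifit2 (0.990) for Mx1, Ifit1 (0.992) and Gbp5 (0.990) for Mx2, Cxcl11 (0.994) and Gbp3 (0.991) for Rsad2, and Tnfsf10 (0.995) and Mndal (0.993) for Cmpk2. The likest to Ifitm3 were Irf7 (0.986) and Ms4a4c (0.984), to Samhd1 Mov10 (0.981) and Gm6904 (0.978), and to Bst2 Tspo (0.964) and Ctsz (0.964). For Ifitm1 they were Hspa1a (0.895) and Il1rn (0.893), for Ifitm2 Dnaja1 (0.955) and Gm28347 (0.952), and for Ifitm6 Sco1 (0.965) and Smox (0.946). The value of Ifitm6 with Sco1 was 0.730 by Spearman's rho. The points share groups and scaling, and no p is given.

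The 10 genes together held between 2450 and 4366 TPM in control cultures. This sum was 6356 to 8474 TPM with VWF and 16100 to 20350 TPM with LPS at 3.5 h, and 8086 to 12170 TPM with VWF and 26910 to 29180 TPM with LPS at 16 h. The groups did not overlap, apart from the control groups of the 2 times and the VWF groups of the 2 times. Thus the sum with VWF was not lower at 16 h, although Mx1, Mx2, Rsad2 and Cmpk2 had fallen: per length Bst2 and Ifitm3 had means of 1428 and 2315 TPM at 3.5 h and of 5222 and 4045 TPM at 16 h.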

How the data were processed

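The authors aligned paired-end reads of 150 bases to GRCm38 (mm10) with STAR and deposited 1 table of raw read counts per gene for the 28 cultures. Not given in the sources used here were the STAR version, the annotation, the use of strand and the treatment of reads with several matches, so counts of overlapping or near-identical genes are uncertain. Groups and replicate numbers came from the labels. TPM used exon lengths from GENCODE M21, and CPM used TMM factors of all cultures. Comparisons used edgeR 4.0.16 in R 4.3.3 (quasi-likelihood, robust, TMM factors) on the groups compared, over genes reaching 10 TPM in a culture, with Benjamini-Hochberg adjustment over all genes tested, and an effect was called at an adjusted p under 0.05 and an absolute log2 fold change over 1. SE is the log2 fold change divided by the root of its F statistic. The steps were tested on simulated data.

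Alternatives were DESeq2 1.42.0, median-of-ratios factors, library size alone, filterByExpr, no filter, all groups in 1 fit, a replicate block, leaving out each culture in turn and dropping the fold threshold. Leaving out the 4 cultures low in macrophage markers was added after the data were seen. The members and lists were chosen with earlier results of these data known. The text names the 10 genes, up to 4 called genes of each list with the largest change (all of them where 5 or fewer), the 2 most similar genes of each member and the neighbouring genes. Some genes of the lists are not reported here. No pair of cultures in a group agreed within sampling noise (lowest chi-square per degree of freedom 15.8). Same-numbered cultures deviated together in every pair only for VWF against LPS at 16 h (4 pairs, r 0.201 to 0.812), and the replicate block kept the 10 genes lower there.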

Additional observations from a re-analysis of the deposited data

Results flagged for a closer look

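In 4 of 60 groups of cultures 1 culture stood apart from the rest by Dixon's criterion, where chance gives about 1 in 20. Rsad2 was at 12000 CPM in LPS 3.5 h replicate 1, and the next culture was at 14500 CPM. Bst2 was at 647 CPM in Control 16 h replicate 5, with the next at 259 CPM, and Ifitm2 was at 105 CPM in the same culture, with the next at 152 CPM. Both of these replicates are among the 4 cultures low in macrophage markers. Ifitm1 was at 3.3 CPM in VWF 3.5 h replicate 2, with the next at 2.04 CPM.

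Effects that differed between the 2 times by the interaction test, in edgeR at an adjusted p under 0.05, are given on the log2 scale as 16 h minus 3.5 h. The VWF effect changed by -3.51 for Mx1, -4.47 for Mx2, -3.6 for Rsad2, -3.82 for Cmpk2, 1.89 for Bst2, 1.36 for Ifitm3 and -0.63 for Ifitm2, the last under the fold threshold. The LPS effect changed by -1.54 for Mx2, 2.0 for Bst2, 1.89 for Ifitm1, 1.52 for Ifitm3 and 2.25 for Ifitm6. The difference between VWF and LPS changed by -3.42 for Mx1, -2.95 for Mx2, -4.19 for Rsad2, -3.49 for Cmpk2, -3.52 for Ifitm1, -1.04 for Ifitm2 and -2.52 for Ifitm6.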

How the results depend on the processing

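Among 2213 alternative values of single genes, 2180 kept their side of the threshold, 29 lost a call and 4 gained one. No value that was called in either fit changed direction. Values called in neither fit could change sign, as for Bst2 with time in controls (0.02, and -0.47 at the lowest alternative). Of the counts of called genes, 487 alternatives stayed within 1.5 times and 7 moved. With no fold threshold 8 genes were higher with VWF at 3.5 h, beside 1832 of 8200 genes tested. With time in controls 1 was higher, beside 1721 of 8333, and 2 were lower, beside 1708. With time 3 were higher in VWF cultures, beside 2747 of 7927, and 6 in LPS cultures, beside 2222 of 6987. With all groups in 1 fit 1 gene, Ifitm1, was lower with VWF at 16 h. With library size alone 5 genes were lower with VWF than with LPS at 3.5 h. That scaling also moved the split of all genes called higher and lower: to 608 and 652 from 746 and 458 for VWF at 3.5 h, 704 and 2213 from 1047 and 963 for LPS at 3.5 h, 782 and 2319 from 1221 and 989 for LPS at 16 h, 772 and 334 from 353 and 503 for VWF against LPS at 3.5 h, 1772 and 687 from 837 and 1095 at 16 h, and 1176 and 893 from 879 and 1173 for the change of that difference with time.

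A looser filter raised the number of all genes called higher in the comparisons with control, with VWF at 3.5 h to 1209 with filterByExpr and 1393 with no filter, at 16 h from 355 to 613 and 647, with LPS at 3.5 h to 1825 and 2141 and at 16 h to 2093 and 2299, and more genes were then tested. In every other comparison the counts rose by over 1.5 times likewise in at least 1 direction.

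Leaving out 1 culture gave 9 to 10 genes higher with LPS at 3.5 h, 6 to 9 lower with VWF than LPS at 3.5 h and 9 to 10 at 16 h, 3 to 4 higher with time in LPS cultures, and 6 to 7 whose VWF to LPS difference grew with time, where Ifitm2 was lost in 8 of 18 fits (-1.0 to -0.96). The other counts did not vary. Without the 4 cultures low in macrophage markers 9 genes were lower with VWF than LPS at 16 h and 6 differences grew with time, since Ifitm2 was then at -0.98. Over 8 alternative settings, this one included, the Ifitm2 change lay between -1.03 and -0.86 and was called in 3. The replicate block changed 1 call, Bst2 for VWF against LPS at 3.5 h (-0.93, adjusted p 0.00584, so 7 genes lower), and in the comparisons other than VWF against LPS at 16 h the lowest correlation of same-numbered cultures was between -0.69 and -0.178, so the numbers were not taken to pair cultures there. Depth limits Ifitm1 most, with 14 to 79 counts per VWF culture at 16 h.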

Other observations

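The protein-coding genes beside the 10 genes on their chromosomes were mostly under the expression filter. Fam3b, between Mx1 and Mx2, was higher with LPS than in controls at 16 h (7.06 on the log2 scale, SE 0.61) and lower with VWF than with LPS (-7.83, SE 0.37), in the same directions as Mx1 and Mx2. Fam3b was also higher at 16 h than at 3.5 h in LPS cultures by 4.16 (SE 0.21), where Mx2 fell and Mx1 did not pass the test. It was tested only in the 5 comparisons that hold LPS 16 h cultures. Fam3b could thus enter them only by being high in those cultures, so the direction of these differences is no independent result. Rbl1, which encodes the pocket protein p107 and lies next to Samhd1, rose with LPS at 3.5 h (1.76, SE 0.16), where it passed the filter through the LPS cultures alone. It differed by -0.01 (SE 0.10) at 16 h, while Samhd1 was higher at both times. Mvb12a, next to Bst2, was tested in 12 comparisons, its largest log2 difference was 0.53 and edgeR called it in none.

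Within groups, Mx1 and Bst2 deviated in opposite directions from their group means (Pearson r -0.648 over 28 cultures), while Rsad2 and Cmpk2 deviated together (0.905), as did Ifitm2 and Ifitm3 (0.816). In Control 16 h replicate 5, the culture lowest in macrophage markers, every one of these markers was in TPM below the other cultures of its group. Lyz2 (5410 TPM against 24900 to 30900 TPM) and Cd68 (366 TPM against 1910 to 2230 TPM) differed most. Itgam (67.5 TPM against 117 to 124 TPM) and Cd14 (1230 TPM against 1940 to 2620 TPM) differed less. Samhd1, outside this list, was also lower in TPM there (52.4 TPM against 63.8 to 79.0 TPM), while Bst2 was higher. In CPM Samhd1 was not lower there (225 CPM against 191 to 228 CPM). The part of the TPM scaling in the lower marker values was not tested. What sets this culture apart was not tested.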
